A study of Homo sapiens with 6 samples.

Results

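Chromatin accessibility at 10 genes of the neuronal cytoskeleton and of neuronal differentiation was examined in human neural progenitor cells (NPCs): MAP2, MAPT, DCX, STMN2, TUBB3, GAP43, SYP, ELAVL3, ELAVL4 and RBFOX3. They were taken by name from the 20033 protein-coding genes on the chromosomes that hold peaks, by a rule that sets no threshold on a measured value, although MAP2 and TUBB3 are genes that the study itself singled out in these libraries. For each gene, every peak that overlapped the gene body with 20 kb on each side was collected, and a peak within 3 kb of the gene's transcription start site (TSS) was called a promoter peak.

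ATAC-seq, which tags accessible DNA with adapters carried by the Tn5 transposase, was performed on 3 groups of NPCs derived from the human embryonic stem cell line H1, with 2 replicates per group. WT NPCs were unmodified. dKO NPCs lacked both UTX (KDM6A) and JMJD3 (KDM6B), demethylases of the repressive mark H3K27me3. The third group was dKO NPCs transduced with a lentivirus that expresses BAF53B, the neuron-specific subunit of the BAF chromatin remodelling complex (gene ACTL6B), so the controls of that group carry both knockouts too. The knockouts were made in H1 cells with Cas9 and donor DNA followed by selection of puromycin-resistant clones, the WT and dKO cells were sequenced at an early NPC passage. The labels class the BAF53B samples as NPCs, whereas the study describes the BAF53B-rescued cells of its ATAC-seq as differentiated. The stage of these libraries is therefore uncertain, and in each comparison with the BAF53B list BAF53B and the stage of the cells cannot be told apart. Both replicates of a group were pooled in 1 peak list. There is therefore no replicate error and no test between groups, and every difference below describes 3 pooled lists.

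The lists held 7880 peaks in WT, 25439 in dKO and 16948 in dKO with BAF53B (hereafter the BAF53B list). The height of a peak is given as its pileup, the whole number of fragments that covered the summit, and between lists as the pileup divided by the list's genome background, which follows sequencing depth and was 6.33 in WT, 6.81 in dKO and 6.78 in BAF53B. The lowest pileup that was called was 25, 25 and 26 fragments. Intervals of ratios are exact 95% intervals and cover counting error only. Promoter peaks were present at KDM6B and ACTL6B in all lists and at KDM6A in the dKO and BAF53B lists, and such peaks do not check the genotypes.

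Neurons are built around microtubules. TUBB3 encodes the neuronal class III beta-tubulin, MAP2 stabilises microtubules in dendrites and tau (MAPT) in axons, doublecortin (DCX) binds microtubules in migrating neuroblasts, and stathmin-2 (STMN2) and GAP43 act in the growing axon. SYP encodes synaptophysin of the synaptic vesicle membrane, and ELAVL3, ELAVL4 and RBFOX3 (NeuN) encode neuronal RNA-binding proteins. These genes are widely used markers of neurons and are expressed at low levels in dividing progenitors. An open promoter in a progenitor does not by itself show that the gene is transcribed.

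The sequences of the regions on which the results turn are shown first, in the orientation of the gene and in genome build hg38. Capitals mark matches on either strand to short motifs: the GC box (GGGCGG), the CCAAT box (CCAAT), an RFX half-site (GTTGCC), an RE1 right half-site (GGACAGC), the E-boxes CAGCTG and CAGATG, and the AP-1 site TGAGTCA, whose reverse complement is TGACTCA. None of these contains another. Sequences of the promoter peaks of TUBB3 (chr16:89923138-89923337, plus strand, dKO only), GAP43 (chr3:115623310-115623509, plus strand, dKO and BAF53B) and SYP (chrX:49200219-49200418, minus strand, dKO and BAF53B) are the 200 bases that end just before a start of the gene. That start is the 5′ end of the gene record for GAP43 and SYP, and for TUBB3 the first of the transcript starts inside the peak. The ELAVL3 sequence (chr19:11482075-11482275, minus strand, BAF53B only) is the 201 bases around the summit of its promoter peak.
TUBB3 promoter: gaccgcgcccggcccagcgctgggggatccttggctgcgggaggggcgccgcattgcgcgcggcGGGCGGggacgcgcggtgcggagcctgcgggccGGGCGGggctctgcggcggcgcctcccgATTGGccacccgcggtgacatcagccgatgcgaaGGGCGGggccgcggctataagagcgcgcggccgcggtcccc
GAP43 promoter: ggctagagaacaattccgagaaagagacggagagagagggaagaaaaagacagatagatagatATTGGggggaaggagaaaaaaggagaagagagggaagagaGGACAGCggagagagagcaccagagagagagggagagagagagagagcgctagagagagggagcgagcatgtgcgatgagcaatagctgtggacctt
SYP promoter: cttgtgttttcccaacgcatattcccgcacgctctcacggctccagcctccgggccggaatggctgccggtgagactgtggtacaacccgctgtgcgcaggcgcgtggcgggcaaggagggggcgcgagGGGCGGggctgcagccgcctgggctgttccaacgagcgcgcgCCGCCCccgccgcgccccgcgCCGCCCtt
ELAVL3 promoter peak: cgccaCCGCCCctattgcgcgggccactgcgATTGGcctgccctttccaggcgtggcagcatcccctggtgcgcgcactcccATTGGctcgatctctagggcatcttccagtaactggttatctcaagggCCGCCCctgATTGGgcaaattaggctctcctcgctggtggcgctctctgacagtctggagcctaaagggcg

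The windows differ in base composition. GC content was 80.5% in the TUBB3 window and 73.5% in SYP, each with 3 GC boxes, but 51.0% in GAP43, which holds a purine-rich stretch and no GC box. In the ELAVL3 window GC content was 62.7% and the CCAAT box occurred 3 times. Among the 201 bases around the summits of all 32108 regions of the 3 lists, 3 or more GC boxes were found in 7.28% and 3 or more CCAAT boxes in 1.81%. The printed TUBB3 and SYP windows are not centred on a summit. Around their summits, these regions held 4 GC boxes each. All regions include those away from starts, and no such share for promoter regions alone was computed.

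Peaks inside MAP2 and RBFOX3 that were called only in the BAF53B list are shown for their motifs. They are the bases before an internal start of MAP2 in intron 2 (chr2:209579123-209579314) and in intron 5 (chr2:209661323-209661464), and 201 bases around the summit in MAP2 intron 1 (chr2:209496040-209496240), in MAP2 intron 4 (chr2:209629676-209629876) and in RBFOX3 intron 2 (chr17:79461138-79461338, minus strand). The windows before a start run from the edge of the peak to the first transcript start inside it. They do not reach the summit, and the start nearest the summit lies further into the peak.
MAP2 intron 2 start: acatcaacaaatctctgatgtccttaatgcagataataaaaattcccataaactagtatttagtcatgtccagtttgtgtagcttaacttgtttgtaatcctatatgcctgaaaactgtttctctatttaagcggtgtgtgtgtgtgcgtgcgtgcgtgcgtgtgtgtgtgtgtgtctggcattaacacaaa
MAP2 intron 5 start: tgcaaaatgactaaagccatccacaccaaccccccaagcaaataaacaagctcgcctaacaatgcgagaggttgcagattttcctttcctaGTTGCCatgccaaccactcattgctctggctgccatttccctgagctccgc
MAP2 intron 1: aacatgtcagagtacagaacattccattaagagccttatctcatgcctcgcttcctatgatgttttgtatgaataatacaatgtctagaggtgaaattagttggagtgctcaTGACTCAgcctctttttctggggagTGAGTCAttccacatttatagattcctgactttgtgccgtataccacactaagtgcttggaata
MAP2 intron 4: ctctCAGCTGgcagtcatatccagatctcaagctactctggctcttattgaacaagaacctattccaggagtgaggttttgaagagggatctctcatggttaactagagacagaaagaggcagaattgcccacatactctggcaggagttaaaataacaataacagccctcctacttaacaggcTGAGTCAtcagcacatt
RBFOX3 intron 2: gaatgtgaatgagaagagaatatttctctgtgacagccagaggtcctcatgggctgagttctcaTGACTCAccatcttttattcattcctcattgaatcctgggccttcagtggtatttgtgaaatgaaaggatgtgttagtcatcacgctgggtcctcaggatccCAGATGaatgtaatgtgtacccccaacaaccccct

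Over all 10 genes, 45 peaks formed 31 regions when overlapping peaks of the 3 lists were merged, in windows of 1877 kb in all. WT NPCs showed 4 of these regions, dKO NPCs 21 and dKO NPCs with BAF53B 20. Over all 24996 regions at protein-coding genes the corresponding shares were 26.6% in WT, 82.6% in dKO and 55.1% in BAF53B. Of the 31 regions, 4 were called in all lists (background 21.4%), 11 in dKO only (background 40.7%), 10 in BAF53B only (background 13.6%) and 6 in dKO and BAF53B. For the last pattern no share over all regions is given, so its count is not compared with a background. No region was called in WT only (background 2.81%). At least 1 region was found at 4 of the 10 genes in WT, 7 in dKO and 6 in BAF53B, beside 47.0%, 78.4% and 67.9% of all protein-coding genes.

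**Figure D1:**
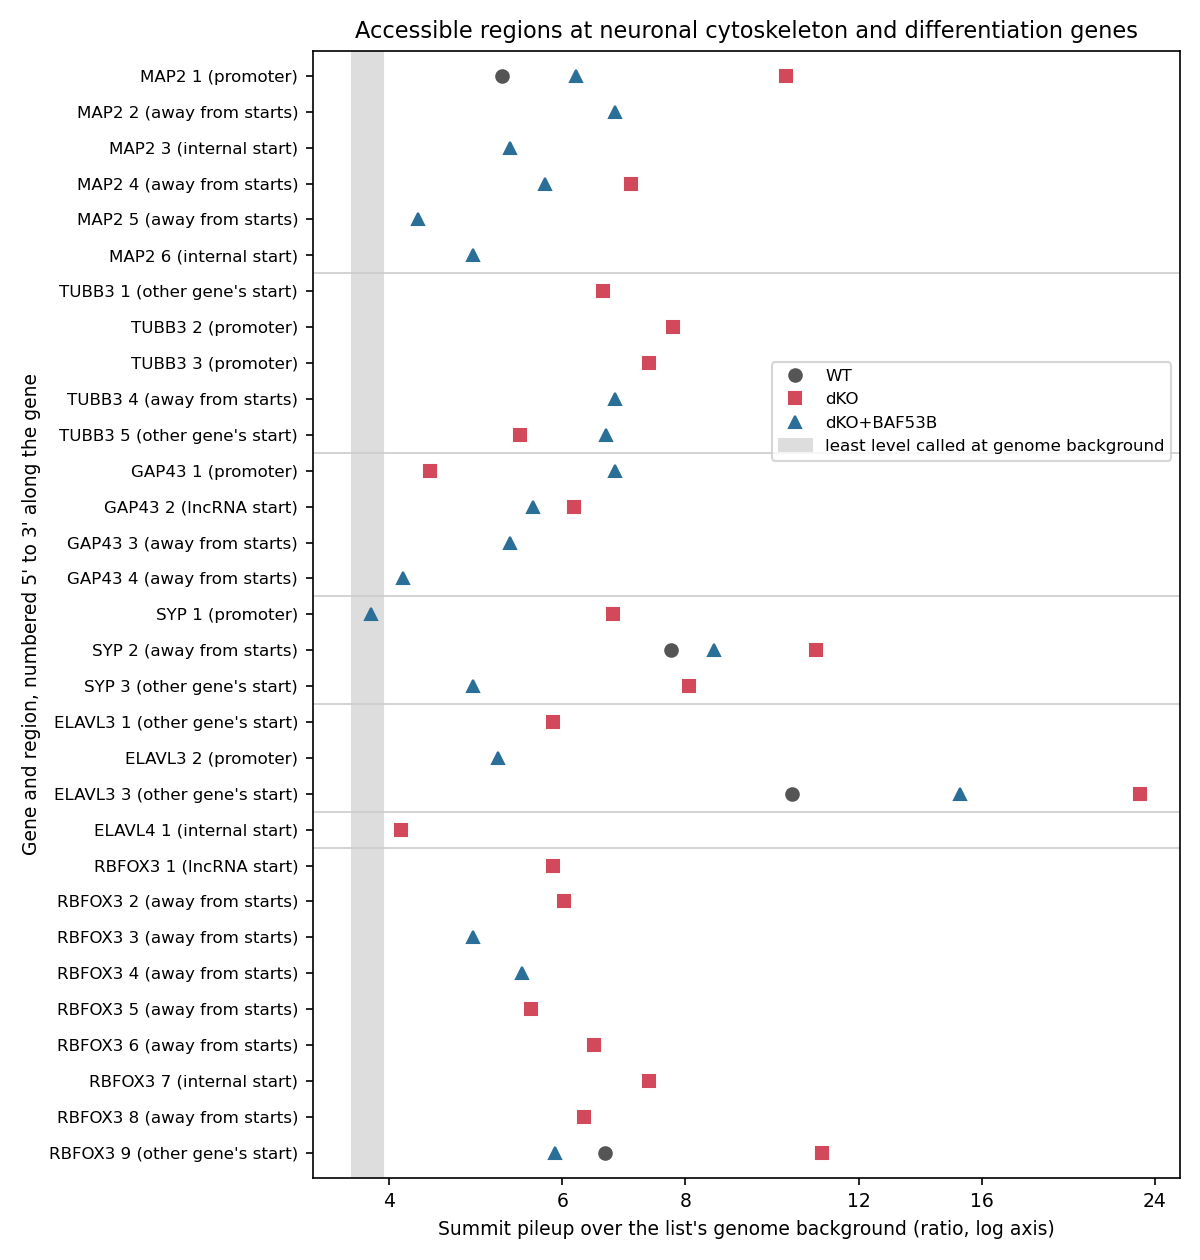
Each row is 1 of the 31 regions at the genes with a peak, and each marker is the summit pileup over the genome background of the list that called it (log axis); a missing marker means that no peak was called, and the grey band is the least level that a list could call over its genome background. The 4 WT circles stand beside 21 dKO squares and 20 BAF53B triangles, and every dKO square lies to the right of the WT circle of its row.

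Promoter peaks were found at 1 of the 10 genes in WT (MAP2), where 28.2% of protein-coding genes had one. In dKO they were found at 4 (MAP2, TUBB3, GAP43 and SYP), beside 56.4% of all genes. In BAF53B they were found at 4 (MAP2, GAP43, SYP and ELAVL3), beside 45.0%. The promoters of TUBB3, GAP43 and SYP were called in dKO and not in WT, a pattern shared by 28.6% of all genes. ELAVL3 was called in BAF53B and not in dKO, as were 2.05% of all genes. MAPT, DCX, STMN2, ELAVL4 and RBFOX3 had no promoter peak in any list, like 41.3% of all genes. These counts use the start of the gene record. If all annotated transcript starts were used, ELAVL4 and RBFOX3 would have a promoter peak in dKO.

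These counts depended on list length. When only the 7880 strongest peaks by −log10 q were kept in each list, promoter peaks remained at MAP2 in WT, at MAP2 and SYP in dKO, and at MAP2 and GAP43 in BAF53B, and the regions numbered 4, 7 and 9. Of the 27 regions that the WT list lacked, 20 would have passed the lowest score in that list if WT had shown the same enrichment at its own depth, so for the other 7 the absence of a WT call says little. Those 7 include both TUBB3 promoter regions, the ELAVL3 promoter region and the ELAVL4 region. This calculation was chosen after the data had been seen. It takes the enrichment of calls that had passed in another list and leaves out counting error in WT. A pass therefore does not show that accessibility was lower in WT.

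**Figure D2:**
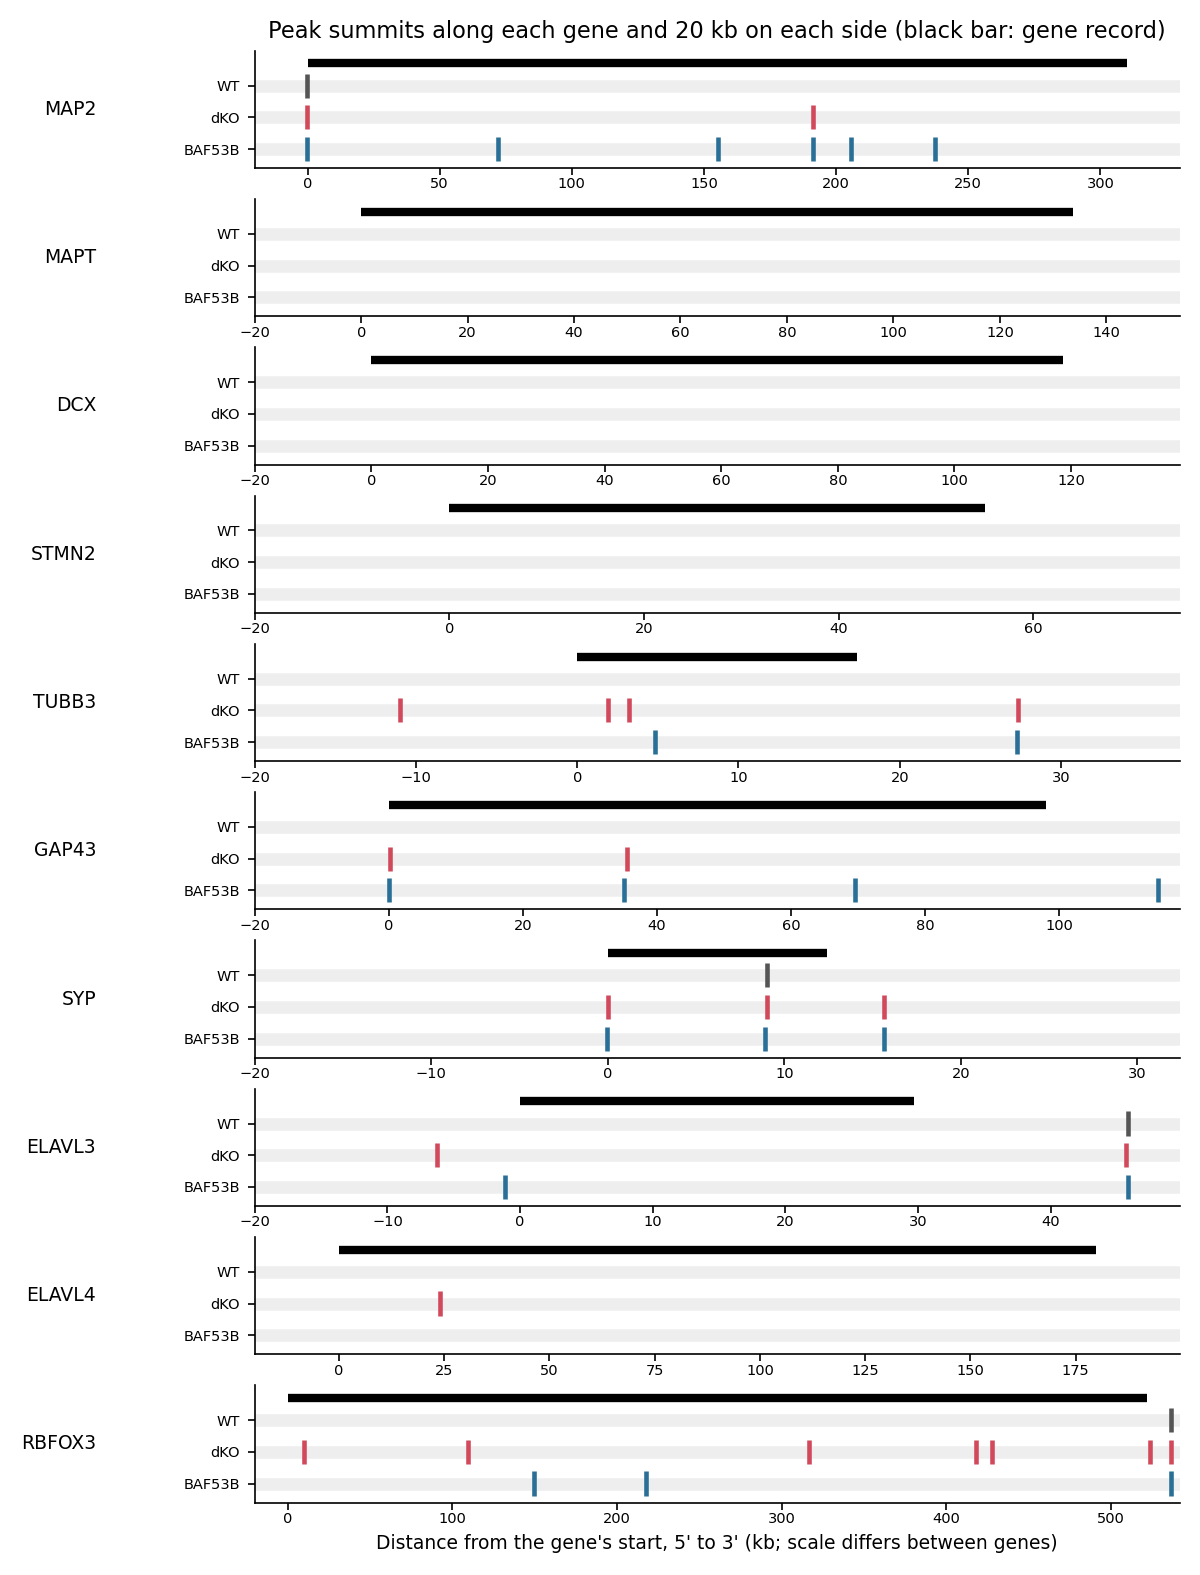
Vertical ticks are peak summits in the WT, dKO and BAF53B lists along each gene with 20 kb on each side, plotted by distance from the 5′ end of the gene record in kb, and the black bar is the gene; scales differ between genes. MAPT, DCX and STMN2 hold no tick in any list, and the ticks inside MAP2 are mostly in the BAF53B row.

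Among the microtubule-associated genes, MAP2 (ENSG00000078018.22, chr2:209424047-209734147, plus strand) was the only gene of the 10 with a promoter peak in all lists. The summit lay at −142 bp from the TSS in WT, −114 bp in dKO and −112 bp in BAF53B. The pileup was 33 fragments in WT, 69 in dKO and 42 in BAF53B. The dKO list was thus the highest and WT the lowest. Relative to genome background the dKO level was 1.94-fold that of WT (interval 1.27 to 3.04), and the BAF53B level was 0.61-fold that of dKO (0.41 to 0.91). Against WT, the BAF53B level differed by 0.25 on the log2 scale, with an interval of −0.44 to 0.95 that includes 0. The WT peak had a −log10 q of 5.24, close to the lowest in its list, and the dKO peak 31.2. The call widened with its height, from 679 bp in WT to 1196 bp in dKO.

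Inside MAP2, 5 further regions were called, none of them in WT. Region 4, in intron 3, had 48 fragments in dKO and 39 in BAF53B, a difference within the counting interval (log2 −0.29, interval −0.94 to 0.35). The other 4 were called in BAF53B only. They had 46 fragments in intron 1, 36 in intron 2, 29 in intron 4 and 33 in intron 5. Each of these 4 calls, at the same enrichment, would have passed the lowest score of the dKO list and of the WT list. In intron 4 the WT margin was narrow, 8.44 beside 8.36. The intron 2 summit lay at 49 bp from an annotated internal start and the intron 5 summit at −11 bp from another, so both sat at starts of shorter MAP2 transcripts. These starts lie further into the peaks than the ones that end the sequences above.

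BAF53B-only regions numbered 4 or more in the windows of 56 of the 20033 protein-coding genes (0.280%). Long windows hold more regions, and among the 641 genes whose windows were within 1.25-fold of MAP2's 350 kb, 12 (1.87%) had as many, with a median of 1. MAP2 had the most BAF53B-only regions of the genes examined here, and the shares were computed for that highest count. They describe its rank and are not a test.

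MAPT, DCX and STMN2 had no peak in any list. Their windows spanned 174 kb, 159 kb and 95 kb. Of all protein-coding genes, 18.9% had no region in any list, and among the 4368 genes with windows of 90 to 180 kb the share was 10.6%. DCX (chrX:111293779-111412429, minus strand) lies on the X chromosome, of which these cells carry a single copy. SYP lies on the same chromosome and had a region called in all lists. The cause of the missing calls was not tested. The 1 kb around each TSS ranged widely in composition. MAPT (chr17:45894527-46028334, plus strand) had 72.7% GC and a CpG observed-to-expected ratio of 0.89, above 88.8% of protein-coding genes, whereas this ratio was 0.13 at DCX, above 4.90%, and 0.32 at STMN2 (chr8:79611117-79666158, plus strand), above 24.4%. MAPT thus combined a CpG-rich start with no call in any list. Since only called peaks are listed, an accessible site below the least pileup was not detectable here.

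TUBB3 (ENSG00000258947.8, chr16:89921392-89938761, plus strand) had promoter peaks in dKO only. The first was called with 53 fragments at chr16:89922860-89923449, at −35 bp from a transcript start, and the second with 50 fragments in intron 1 at chr16:89923981-89924856. Neither was called in WT or BAF53B. Both lie in a neighbourhood of high local background, 21.6 and 19.7 fragments, so their fold enrichments were only 2.39 and 2.46 and their −log10 q values 5.68 and 5.73. Scaled to the BAF53B list, both would have passed its lowest score narrowly, 8.12 and 8.16 beside 7.96. In BAF53B a peak of 46 fragments was called instead further into intron 1, at chr16:89925740-89926488 and 4831 bp from the TSS, where dKO had no call. This region would count as a promoter peak if all annotated transcript starts of the gene were used. The remaining regions in the window lay at neighbouring genes. The TCF25 start was called in dKO only with 45 fragments, and the DEF8 start with 37 fragments in dKO and 45 in BAF53B.

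GAP43 (ENSG00000172020.13, chr3:115623510-115721490, plus strand) had the one promoter among those shared by dKO and BAF53B (MAP2, GAP43 and SYP) that was higher in BAF53B. It was not called in WT, had 30 fragments in dKO and 46 in BAF53B, with summits 133 bp and 82 bp past the TSS in the 5′ UTR of exon 1. The BAF53B level was 0.62 higher on the log2 scale, with an interval of −0.07 to 1.34 that just includes 0. Among the 11147 regions shared by the dKO and BAF53B lists, of which 20.3% were higher in BAF53B, this ratio was above 99.0%. It was the highest of the 10 such ratios at the genes examined here, so the rank describes a highest value and is not a test. The dKO call had a −log10 q of 5.59, close to the lowest in its list, 5.00. The local background was higher too, 8.77 in dKO and 12.1 in BAF53B, and on the authors' fold enrichment the ratio was 0.18. A region in intron 1, at the start of the lncRNA gene ENSG00000241596, had 42 fragments in dKO and 38 in BAF53B. A further region in intron 2 with 36 fragments and one downstream of the gene with 28 were called in BAF53B only, and WT had no call in the window.

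SYP (ENSG00000102003.12, chrX:49187815-49200218, minus strand) showed the opposite direction at its promoter. It was not called in WT, had 46 fragments in dKO, with its summit at 30 bp from the TSS, and 26 in BAF53B, with its summit at −48 bp. The BAF53B value was the lowest pileup that list contains. The ratio was −0.82 on the log2 scale (interval −1.57 to −0.09). A region in intron 6 was called in all lists, with 49 fragments in WT, 74 in dKO and 58 in BAF53B, and was the strongest WT region inside any of the 10 genes. There the dKO level was higher than WT by 0.49 on the log2 scale, with an interval of −0.05 to 1.04 that includes 0. On the authors' fold enrichment, which divides by the local background, the direction turned, with 6.49 in WT and 6.37 in dKO (log2 −0.03). The start of the neighbouring gene PRICKLE3 had 55 fragments in dKO and 33 in BAF53B.

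Of the RNA-binding protein genes, ELAVL3 (ENSG00000196361.10, chr19:11451326-11481046, minus strand) had its only promoter call in BAF53B. The peak had 35 fragments and lay at −1129 bp from the TSS, at chr19:11482011-11482841, with a fold of 2.85 and a −log10 q of 5.15. At the same enrichment it would have scored 8.06 in dKO, just past the lowest score of 7.71, and 7.32 in WT, short of 8.36. The start shared by PRKCSH and ODAD3, 45815 bp from the ELAVL3 TSS in WT, was the strongest region in any of the windows, with 65 fragments in WT, 158 in dKO and 103 in BAF53B. The ZNF653 start had 40 fragments in dKO only.

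ELAVL4 (ENSG00000162374.18, chr1:50024029-50203772, plus strand) had 1 region in its window of 220 kb. It was called in dKO only, with 28 fragments, 139 bp past an internal start and 24124 bp from the TSS. RBFOX3 (ENSG00000167281.20, chr17:79089345-79611051, minus strand) had 9 regions in 562 kb, none at its TSS. The only region called in WT was the start of the neighbouring gene ENGASE, with 42 fragments in WT, 75 in dKO and 40 in BAF53B. Of the remaining 8, 6 were called in dKO only, with 38 to 50 fragments, and 2, in intron 2, in BAF53B only, with 33 and 37. One of the dKO regions, in intron 4, lay at −52 bp from an internal start. In all, 98 protein-coding genes (0.489%) had 6 or more dKO-only regions, and 20 of the 301 genes with windows within 1.25-fold of RBFOX3's did (6.64%). RBFOX3 had the most dKO-only regions of the genes examined here, so these shares too describe a highest count and are not a test.

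By position, 6 of the 31 regions were promoter regions of these genes, 4 lay within 1 kb of an internal start, 6 at the start of another protein-coding gene, 2 at the start of a non-coding gene and 13 away from any start. Over all 24996 regions at protein-coding genes, 11057 lay away from starts. For the other classes no share over all regions is given, so their counts are not compared with a background. Promoter regions were called 1 time in WT, 5 times in dKO and 4 times in BAF53B. Of the regions away from starts, 6 were called in dKO and 9 in BAF53B, where the shares over all 11057 such regions were 69.9% and 39.7%. Of these 13, 4 were called in dKO only (background 54.1%) and 7 in BAF53B only (background 23.4%). The 7 belonged to MAP2, GAP43 and RBFOX3, with 2 each, and TUBB3 with 1.

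An AP-1 site, the binding sequence of FOS and JUN family dimers, was present at most 100 bp from the summit in 4 of the 31 regions and in 6.12% of all regions. The 4 were all away from starts. They were the regions of MAP2 introns 1 and 4 and RBFOX3 intron 2, called in BAF53B only, and a region of RBFOX3 intron 1 called in dKO only. MAP2 intron 1 holds 2 sites, as the sequence above shows. Over all regions away from starts, the site was found in 17.0% of the 2585 called in BAF53B only and in 4.18% of the 5985 called in dKO only. E-boxes, the sequences bound by proneural basic helix-loop-helix factors, were present in 5 (CAGCTG) and 3 (CAGATG) of the 31 regions, beside 15.4% and 11.6% of all regions. The RFX half-site was present in 3 of 31 (10.0% of all regions), among them MAP2 intron 5. The GC box was present in 12 of 31 (33.0%), the CCAAT box in 6 (26.3%), the SOX motif CCATTGT in 1 (2.76%) and CCTTTGT in 2 (5.16%), and the RE1 half-sites CAGCACC and GGACAGC, 2 parts of the element bound by the neuronal repressor REST, in 2 each (6.32% and 5.17%). In the 34943 promoter sequences of RefSeq (300 bases each, GRCh38.p14), the GC box was found in 44.9%, the CCAAT box in 34.6%, the AP-1 site in 4.96% and the RFX half-site in 12.2%. A match is a stretch of letters and does not show binding.

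Where a region was called in both lists, its level could be compared. The 4 regions shared by WT and dKO (the MAP2 promoter, SYP intron 6 and the starts of PRKCSH and ENGASE) were all higher in dKO by pileup over genome background, as were 91.4% of all 6180 shared regions. By the authors' fold enrichment 3 of the 4 were higher and SYP intron 6 was not. Their median was 0.84 on the log2 scale (1.80-fold), beside 0.70 (1.62-fold) over all shared regions. Of the 10 regions shared by dKO and BAF53B, 8 were lower in BAF53B and in 5 of these the counting interval lay below 0. Over all 11147 such shared regions, 20.3% were higher in BAF53B, so the count of 8 in 10 is near the background. The median of the 10 was −0.48, beside −0.36 over all shared regions. With the gene bodies alone it was −0.32 (6 regions). The 2 that were higher, the GAP43 promoter and the DEF8 start, both had intervals that include 0. Between WT and BAF53B the median of the 4 shared regions was 0.20, beside 0.24 over 6194 shared regions, of which 77.7% were higher in BAF53B. The 3 comparisons share lists and are not independent.

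**Figure D3:**
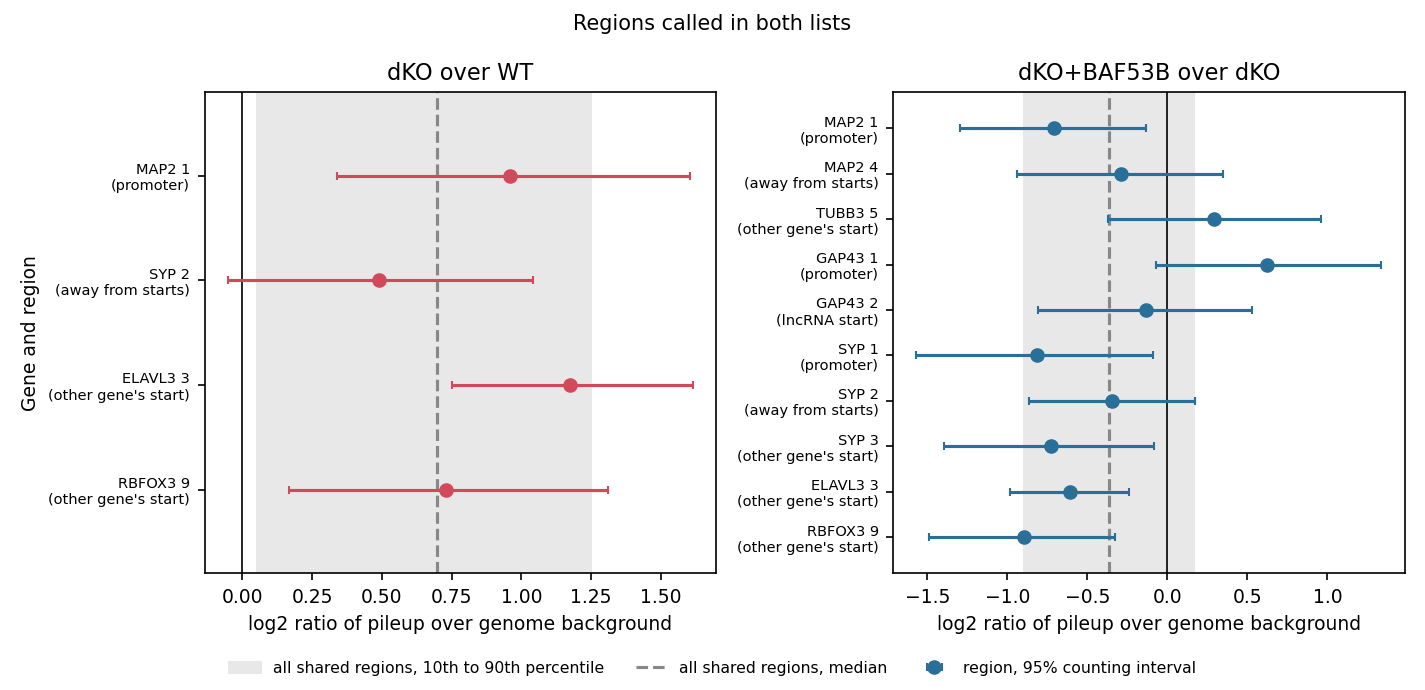
Points are log2 ratios of pileup over genome background for regions at the 10 genes that were called in both lists, with exact 95% counting intervals; the left panel is dKO over WT (4 regions) and the right panel BAF53B over dKO (10 regions). The dashed line and grey band are the median and the 10th to 90th percentile of all shared regions: all 4 points on the left lie above 0 and 8 of 10 on the right below 0, and the GAP43 promoter lies to the right of the band. Over all shared regions, 91.4% were higher in dKO than in WT and 20.3% were higher in BAF53B than in dKO.

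A list of 8 genes paired with these, drawn up as widely expressed relatives, was examined next at the promoters. How widely each of the 8 is expressed was not checked. MAP4, the general counterpart of MAP2 and MAPT, had a promoter pileup of 52 in WT, 115 in dKO and 50 in BAF53B. RBFOX2 had 43, 97 and 57 fragments and ELAVL1, which encodes HuR, had 29, 52 and 55. The stathmin gene STMN1 was not called in WT and had 87 fragments in dKO and 46 in BAF53B, and the synaptophysin-like gene SYPL1 was likewise not called in WT, with 53 and 44. TUBB, DCLK1 and BASP1, paired with TUBB3, DCX and GAP43, had no promoter peak in any list. Thus, of the 8 relatives, WT showed promoter peaks at 3, dKO at 5 and BAF53B at 5, beside 1, 4 and 4 of the 10 genes. Over all protein-coding genes the shares were 28.2%, 56.4% and 45.0%.

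In 4 further lists of neuronal genes, promoter peaks were found at 15 of 60 genes in WT, 41 in dKO and 28 in BAF53B. By list, other neuronal cytoskeleton genes had 8, 16 and 13 of 22, synaptic vesicle and release genes 2, 11 and 5 of 16, other neuronal RNA-binding genes 3, 5 and 5 of 9, and growth cone and adhesion genes 2, 9 and 5 of 13. The order of WT lowest and dKO highest is also that of all protein-coding genes. Progenitor markers had 2, 6 and 4 promoter peaks among 10 genes. SOX1, SOX2, VIM, HES1, FABP7 and MSI1 had a promoter call in dKO, VIM and HES1 also in WT, and PAX6, NES, HES5 and PROM1 in no list. The 4 of 10 without a call stand beside the 41.3% over all protein-coding genes.

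**Figure D4:**
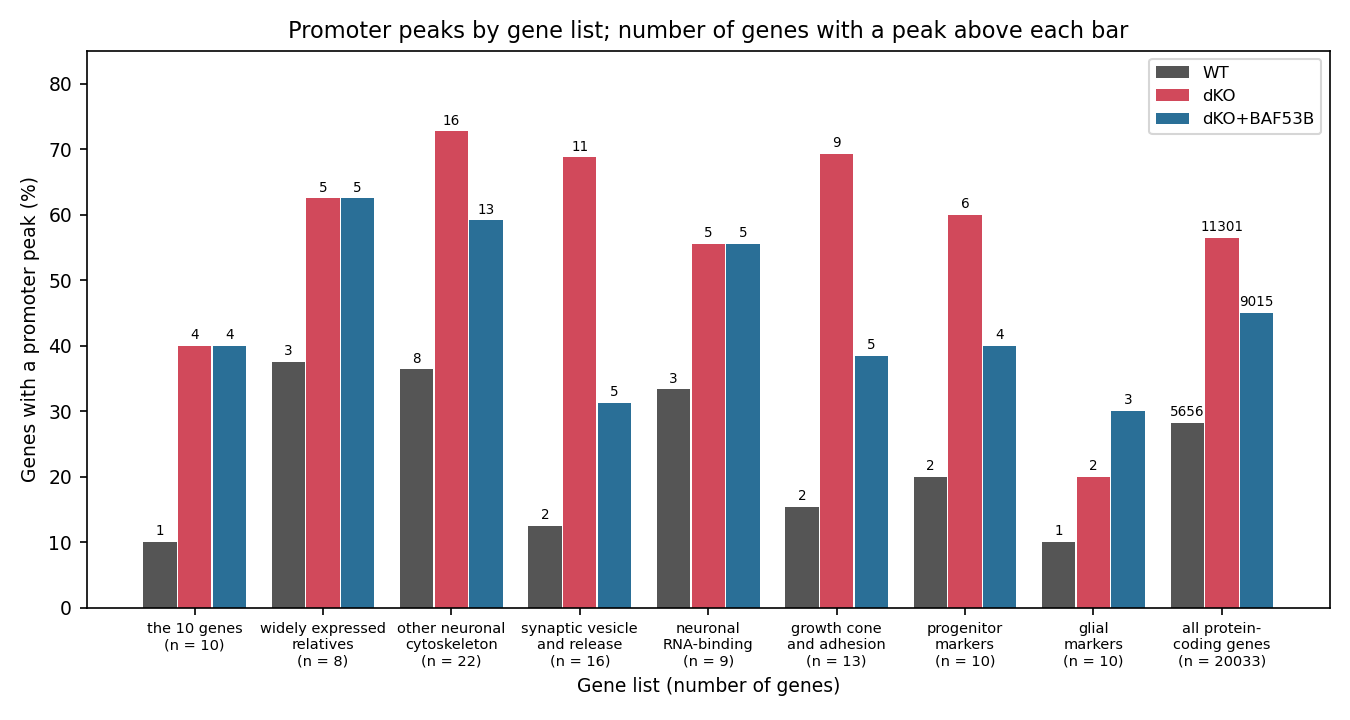
Bars give the share of genes in each list (percent) with a peak within 3 kb of the TSS in the WT, dKO and BAF53B lists, and the number above a bar is the count of genes. The 10 genes stand at 1, 4 and 4, and the dKO bar is the highest or equal highest in every list but the glial markers.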

How the data were processed

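Reads were trimmed (cutadapt 1.13), mapped to hg38 (Bowtie2 2.2.5), freed of duplicates (SAMtools 1.3.1, Picard 1.90) and passed to MACS2 for peak calling by the authors, as their methods state. Calling options, the Tn5 shift and control data are not given in the sources used here. The 3 deposited lists, each pooled over 2 replicates, give fold enrichment (a ratio with a pseudocount of 1), −log10 p-value and −log10 q-value (at least 5) per peak. The deposited ratio and −log10 p were solved for the whole pileup and local background under MACS2's Poisson score; 100% of peaks gave a whole pileup (tolerance 0.001 in the score), and the step was tested on simulated data. The lowest background of a list served as its depth.

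Genes came from GENCODE 44, and peaks were matched by an overlap of at least 1 bp. All 10 genes are described; of other lists only counts and the paired relatives are given, and a neighbour is named where its TSS lies near a peak. Genes and lists were chosen with earlier results of these data known. RefSeq promoter sequences were held for 7 of the 10 genes. One sequence window is not reported here. Alternatives tried were a stricter −log10 q (10 or more), lists cut to equal length, a 1 kb window, all transcript starts, the summit inside the window, no flank, reciprocal overlap of 50%, and the authors' fold or −log10 p as the level. The work was done in Python 3.11.15 with scipy 1.17.1, pandas 2.3.3, numpy 2.4.6 and pysam.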

Additional observations from a re-analysis of the deposited data

How the results depend on the processing

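Of 39 values recomputed under an alternative, 23 stayed within 1.5 times the count or within the counting interval and neither median log2 ratio changed sign. The order of the dKO and BAF53B counts did change: the regions, 21 and 20, were 7 and 9 with lists of equal length. The promoter genes, 4 and 4, were 3 and 4 with the 1 kb window and 6 and 5 with all transcript starts. With peaks of −log10 q of at least 10 only, promoter peaks fell to 0 genes in WT, 2 in dKO and 2 in BAF53B, regions to 8 in dKO and 6 in BAF53B, and the median log2 ratio of BAF53B over dKO to −0.61 (3 regions). With lists of equal length, promoter peaks were found at 2 genes in dKO and 2 in BAF53B, the regions numbered 7 in dKO and 9 in BAF53B, and the same ratio was −0.61 (5 regions). With all transcript starts, 2 genes had a promoter peak in WT. Without the flank of 20 kb, 2 regions remained in WT. The median log2 ratio of BAF53B over dKO was then −0.32 (6 regions), beside −0.36 over all shared regions, and that of dKO over WT 0.72 (2 regions). With the authors' fold as the level, the median log2 ratio of dKO over WT was 0.45, and with −log10 p it was 1.34, and −0.66 for BAF53B over dKO. The last 3 values rest on the same regions and differ in the measure of level. The cause of the shifts was not tested.

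No paired analysis was possible because the lists are pooled over the replicates, and for the same reason leaving out a replicate was not run. A site below 25 fragments at a summit was not detectable, and the absence of a call is not the absence of accessibility. Batch, clone and stage of the cells cannot be told apart from the group. Depth, taken as the genome background, was 6.33 in WT, 6.81 in dKO and 6.78 in BAF53B, and its part in the differences was not tested.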

Other observations

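Promoter calls covered 1 of 10 glial markers in WT, 2 in dKO and 3 in BAF53B, beside 28.2%, 56.4% and 45.0% of all protein-coding genes. The 3 called in BAF53B were not called in dKO. They were ALDH1L1, an astrocyte enzyme, and OLIG1 and OLIG2, transcription factors of the oligodendrocyte lineage. The 2 called in dKO, AQP4 with 32 fragments, an astrocyte water channel gene, and PDGFRA with 37, a receptor gene of oligodendrocyte progenitors, were not called in BAF53B. These genes were named after their values were seen. No promoter peak was found in any list at 5 of the 10. Over all protein-coding genes, 411 of 20033 (2.05%) were called in BAF53B and not in dKO.

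Synaptic vesicle genes and growth cone genes were called in dKO and not in WT at 9 of 16 and 7 of 13, beside 28.6% of all protein-coding genes. In BAF53B 5 genes of each list were called, beside 45.0%. These lists had the highest shares called in dKO and not in WT. That pattern was found at 9 of 22 other neuronal cytoskeleton genes, 3 of 9 other neuronal RNA-binding genes and 4 of 10 progenitor markers. It was found at 3 of the 10 genes, 2 of the 8 relatives and 1 of 10 glial markers.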
